A study of Homo sapiens with 2 samples.

Results

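The genes described here encode ATF4, CHOP (gene symbol DDIT3), ATF3 and the factors that work closest to them in the integrated stress response. They were taken from the tables by symbol as ATF4, DDIT3, ATF3, ATF5, CEBPB, CEBPG, JDP2, TRIB3, NUPR1 and CHAC1, and make up 10 of 22595 gene symbols. The RNA came from 786-O, an established line of human renal carcinoma of the clear cell type that lacks functional VHL, with 1 library for medium with 0 mM glucose and 1 library for medium with 25 mM glucose. Both cultures were of this single line, and how long glucose was withheld is not stated in the labels. The samples were also described as LucG (0 mM) and LucF (25 mM), terms that are not explained, so another difference between the cultures that they may mark cannot be told apart from glucose.

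When the alpha subunit of the translation factor eIF2 is phosphorylated by one of its kinases, most protein synthesis slows, while open reading frames upstream in the ATF4 messenger let more ATF4 protein be made. ATF4 is a basic leucine zipper (bZIP) transcription factor that binds DNA as a dimer, often with a C/EBP protein, at composite sites in amino acid, redox and stress genes. Its targets include the genes of CHOP and ATF3, which in turn act on many of the same promoters, and of TRIB3, which binds ATF4 and limits it. Unfolded proteins in the endoplasmic reticulum (ER), whose glycoproteins need sugar precursors to fold, are among the known triggers, through the kinase PERK.

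The libraries held 31345853 counts without glucose and 27317598 with glucose. Values are given as counts, as CPM (counts relative to library size after TMM scaling, which corrects for differing RNA make-up) or as ratios, without over with glucose. With 1 library a group there was no replicate and no test, so higher and lower refer to these libraries, and intervals are exact 95% counting intervals that leave out variation between cultures. Called higher were genes with an interval entirely above 2-fold, and called lower those with an interval entirely below 0.5-fold. In bulk RNA, fewer cells of a kind and less RNA per cell cannot be told apart. Genes with at least 20 counts over both libraries (14240) were called measured, as were all of the 10 genes. The label of the cells held by its markers in part. By level, PAX8, VIM, KRT8, KRT18, EPAS1 and CA12 were present in both libraries, PAX2 was scarce and CDH6 was low without glucose. The bounds describe differences between the libraries and not cell identity, and 12823 of the 14240 measured genes passed neither. Of 8 renal carcinoma markers, 5 passed neither bound, namely PAX8, a renal lineage factor (232 CPM without and 244 CPM with glucose), VIM (5791 and 4336 CPM), KRT8 (118 and 134 CPM), KRT18 (137 and 151 CPM) and PAX2, which was scarce (1.20 and 2.41 CPM). EPAS1, the gene of HIF-2 alpha, was higher (422 and 134 CPM), and the renal cadherin gene CDH6 (8.36 and 192 CPM) and the carbonic anhydrase gene CA12 (16.1 and 38.6 CPM) were lower. The part of these marker differences in the results was not tested. Of 14 markers of other cell types, 4 were measured, of which CD68 was higher (25.6 and 10.7 CPM), LUM was lower (3.25 and 10.6 CPM) and CD14 (9 and 12 counts) and COL1A1 (2.80 and 4.02 CPM) passed neither bound. The defining markers PTPRC of leukocytes, with 4 and 9 counts, and PECAM1 of endothelium, with 1 and 5 counts, were near 0. Small RNA genes took 7.99% of the counts without and 5.83% with glucose, and leaving those genes out changed no call among the 10 genes.

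Of the 10 genes, 5 were higher without glucose, 0 were lower and 5 passed neither bound. Over all measured genes 3.75% were higher and 6.20% were lower. DDIT3 stood apart with an 18.3-fold difference, followed by ATF3 (10.6-fold), TRIB3 (4.41-fold), NUPR1 (3.21-fold) and CEBPG (2.27-fold). CEBPB, ATF4 and ATF5 lay above 1 and within 2-fold, and CHAC1 and JDP2 lay below 1. The median log2 ratio of the 10 genes was 0.87, against 0.01 over all measured genes, whose quartiles were -0.45 and 0.42. Together the 10 genes took 1591 CPM without glucose and 587 CPM with glucose, a 2.71-fold difference, which was 2.20-fold over the 9 genes without DDIT3. When the interval had to lie wholly above 3-fold, 3 of the 10 genes were higher (DDIT3, ATF3 and TRIB3), against 1.40% of measured genes. With 1.5-fold as the bound DDIT3, ATF3, TRIB3, NUPR1 and CEBPG were higher, against 10.2% of measured genes, and JDP2 was lower, against 12.6%.

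**Figure D1:**
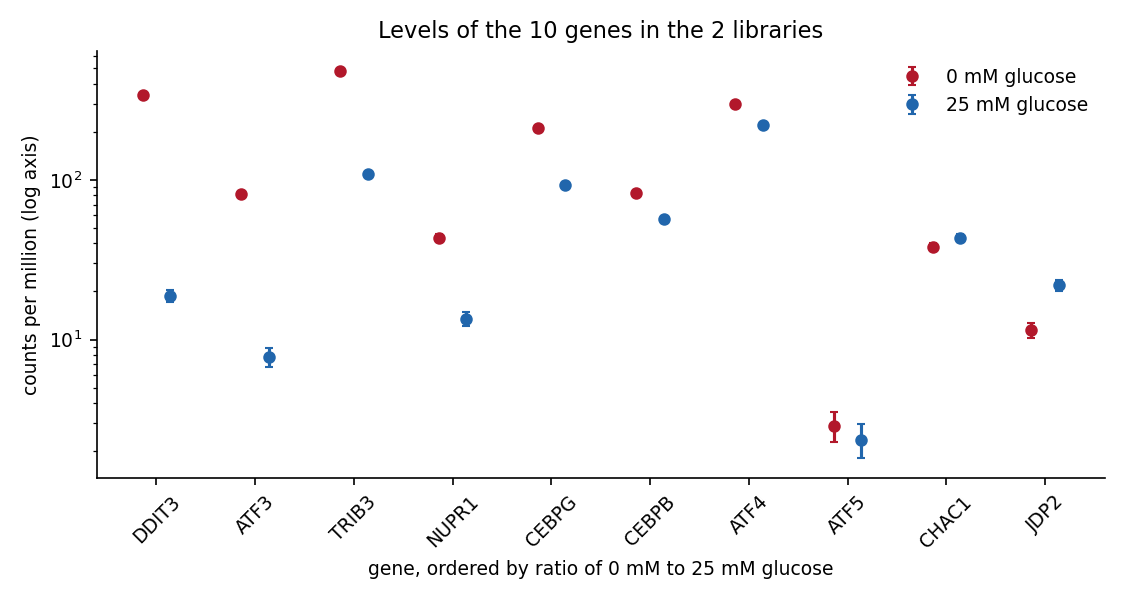
CPM (log axis) of each gene in the library with 0 mM glucose (red) and the library with 25 mM glucose (blue), with exact 95% Poisson intervals of the counts, 1 library each. DDIT3 stands at 342 CPM without and 18.6 CPM with glucose, while ATF4 stands at 299.9 and 222 CPM and JDP2 at 11.4 and 21.8 CPM.

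The promoters of these genes were read for sites of the factors themselves, since several of the genes are known targets of ATF4 or of ER stress factors. RefSeq promoter windows of GRCh38.p14, from 250 bases before to 50 bases after a start, were at hand for 9 of the 10 genes (all but NUPR1) in 20 windows. The composite ATF4-C/EBP core TGATGNAA, on either strand, was in windows of 4 of these 9 genes (CHAC1, CEBPG, JDP2 and ATF3), and in windows of 4.46% of the 27305 genes in the RefSeq table. Counted by window it was in 4 of 20, against 3.62% of 35116. The cAMP response element TGACGTCA (2.25% of genes), the C/EBP palindrome TTGCGCAA (0.172%) and the ER stress element, which is CCAAT and CCACG with 9 bases between them (0.0916%), were in no window of the 9 genes. With any base in the last place of the ER stress element, a form chosen after the DDIT3 window was read and which every full element also fits, DDIT3 had a match, as did 0.381% of genes. The bases before the start of DDIT3 and CHAC1, and the stretches around the core in CEBPG, JDP2 and ATF3, are shown because they set genes that were higher without glucose (DDIT3, CEBPG and ATF3) beside genes that were not (CHAC1 and JDP2). They run 5′ to 3′ on the strand of the gene, and capitals mark the match, which is TTGCATCA in CHAC1, the core read on the other strand.
DDIT3, chr12:57520515-57520764, minus strand: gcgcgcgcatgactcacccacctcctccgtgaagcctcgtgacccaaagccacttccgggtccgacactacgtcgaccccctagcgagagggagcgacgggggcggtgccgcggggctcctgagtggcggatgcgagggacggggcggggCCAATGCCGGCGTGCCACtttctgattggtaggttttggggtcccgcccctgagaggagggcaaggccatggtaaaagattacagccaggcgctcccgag
CHAC1, chr15:40953221-40953470, plus strand: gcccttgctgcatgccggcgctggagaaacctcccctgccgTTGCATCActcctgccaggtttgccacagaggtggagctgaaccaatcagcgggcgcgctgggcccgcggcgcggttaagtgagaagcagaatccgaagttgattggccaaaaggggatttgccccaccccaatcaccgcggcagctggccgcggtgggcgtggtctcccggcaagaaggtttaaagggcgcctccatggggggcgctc
CEBPG, chr19:33374051-33374098, plus strand: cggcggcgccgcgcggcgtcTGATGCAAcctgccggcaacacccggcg
JDP2, chr14:75427986-75428021, plus strand: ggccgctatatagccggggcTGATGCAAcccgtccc
ATF3, chr1:212565196-212565243, plus strand: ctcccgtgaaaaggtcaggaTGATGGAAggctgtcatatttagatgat
The match ran from 100 to 83 bases before the start in DDIT3 and from 209 to 202 bases before it in CHAC1. It lay 42 to 35 bases before the start in CEBPG, 16 to 9 bases before it in JDP2 and 191 to 184 bases before it in ATF3. The core thus stood before starts of 2 genes that were higher and of 2 that were not. It was in no window of DDIT3 and TRIB3, which were higher, or of ATF4, ATF5 and CEBPB, which were not. Bases outside these windows were not searched.

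ATF4, the factor at the head of the group, was within 2-fold at the level of its messenger. The gene lies on chromosome 22, plus strand, from 39916569 to 39918691 in hg19, the build of all gene positions of the tables. It had 9221 counts without glucose and 6177 with glucose, or 299.9 and 222 CPM, a 1.35-fold difference (interval 1.31 to 1.40). Its level was above that of 96.2% of measured genes without glucose and 93.9% with glucose, so the messenger was abundant in both libraries. All 4 exons of its gene model had more than 10 reads in both libraries, per the authors' exon counts. The genes upstream of ATF4 were also within 2-fold. Of the 4 eIF2 kinases and EIF2S1, which encodes eIF2 alpha, none passed either bound. The same held for 12823 of all 14240 measured genes. EIF2AK3, the gene of PERK, had 48.3 CPM without and 40.6 CPM with glucose (log2 ratio 0.25), and EIF2AK4, the gene of the amino acid sensor GCN2, had 128 and 164 CPM (-0.35).

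The C/EBP partners of ATF4 and CHOP differed from each other. CEBPG, a short C/EBP protein that pairs with ATF4 and lacks an activation domain of its own, had 6479 counts without and 2586 with glucose, or 211 and 92.8 CPM, and was 2.27-fold higher (interval 2.17 to 2.38). CEBPB, which encodes the activator and repressor forms of C/EBP beta from a gene of 1 exon, had 2550 and 1574 counts, or 82.9 and 56.5 CPM, and was within 2-fold at 1.47 (interval 1.38 to 1.56). CEBPG lies on chromosome 19, plus strand, from 33864609 to 33873592, and CEBPB on chromosome 20, plus strand, from 48807376 to 48809212. Another C/EBP gene, the acute-phase member CEBPD, was lower, with 3.64 CPM without glucose and 15.2 CPM with glucose (log2 ratio -2.06), and CEBPA had 1.04 and 1.44 CPM, from 32 and 40 counts, with an interval of its ratio that held 1 (0.441 to 1.18). Measured per length, CEBPG stood at 1.25 times the level of CEBPB without glucose (interval 1.19 to 1.31) and at 0.808 times with glucose (0.758 to 0.861).

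DDIT3, whose product CHOP pairs with C/EBP proteins and keeps them from their usual sites while opening others, had the highest ratio of the 10 genes. It had 10503 counts without glucose and 519 with glucose, or 342 and 18.6 CPM, an 18.3-fold difference (interval 16.8 to 20.1). By ratio it ranked 19 of 14240 measured genes, and 5 of 10062 genes that reached 10 CPM in one of the libraries. Its level was above that of 96.8% of measured genes without glucose and 43.8% with glucose. The gene lies on the minus strand of chromosome 12 from 57910371 to 57914300 in hg19, as the tables give it, and all 9 exons of its model had more than 10 reads in both libraries. Its last 63 bases overlap the end of MARS, a tRNA synthetase gene on the plus strand, and whether counting used the strand is not stated, while MARS had fewer counts without glucose (6521) than with glucose (8699). The measured genes with the nearest ratios and at least 100 counts over both libraries were KRT16 (log2 ratio 4.28), RAB39B (4.03) and SLAMF7 (3.99), against 4.20 for DDIT3. With glucose KRT16, RAB39B and SLAMF7 were scarce, at 0.323, 1.08 and 0.718 CPM. Over 2 libraries a pattern is no more than the ratio between them.

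The balance between CHOP and its partners at the messenger level differed in direction between the libraries. Per length, DDIT3 stood at 6.44 times the level of CEBPB without glucose (interval 6.16 to 6.72) and at 0.515 times with glucose (0.466 to 0.569). Against CEBPG it stood at 5.15 times without glucose and 0.638 times with glucose, and against ATF4 at 1.96 times and 0.144 times. DDIT3 and TRIB3 together made up 51.6% of the counts of the 10 genes without glucose and 21.7% with glucose, while the share of ATF4 was 18.8% and 37.8%.

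**Figure D2:**
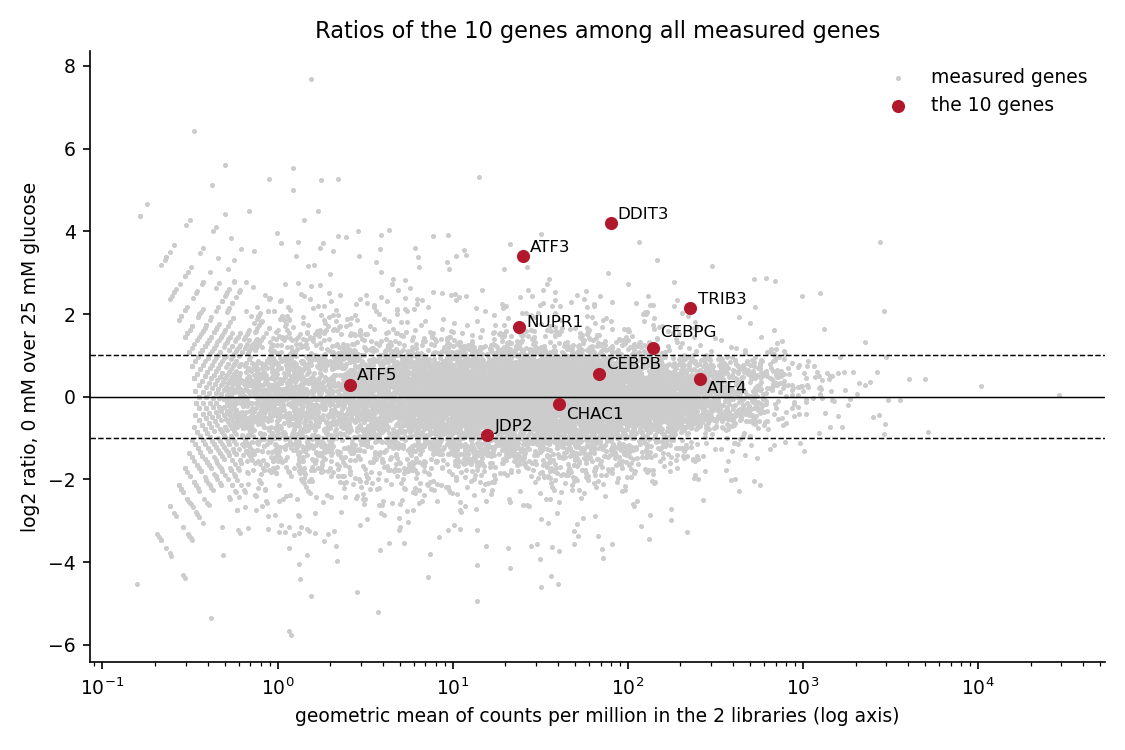
Log2 ratio of the library with 0 mM glucose to the library with 25 mM glucose against the geometric mean of CPM (log axis), for 14240 measured genes (grey) and the 10 genes (red), 1 library each, with a count of 0 set to 3 counts and dashed lines at 2-fold. DDIT3 (4.20) and ATF3 (3.40) lie above most genes of their level, and ATF4 (0.44), ATF5 (0.29) and CHAC1 (-0.19) lie between the dashed lines.

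ATF3, a stress-induced bZIP factor that represses as a homodimer and is a target of ATF4, was also much higher without glucose. It lies on chromosome 1, plus strand, from 212738697 to 212794116. It had 2516 counts without and 216 with glucose, or 81.8 and 7.76 CPM, a 10.6-fold difference (interval 9.18 to 12.2). Exons with more than 10 reads numbered 5 of 6 without glucose and 4 of 6 with glucose. JDP2, the closest relative of ATF3 and a repressor at AP-1 sites, went the other way within the bound. It lies on chromosome 14, plus strand, from 75894509 to 75939404. It had 351 counts without and 608 with glucose, or 11.4 and 21.8 CPM, a ratio of 0.523 (interval 0.457 to 0.597). Per length, ATF3 stood at 12.3 times the level of JDP2 without glucose and at 0.610 times with glucose. The genes with ratios nearest to that of ATF3 were KRT81, DERL3 and ITPKA, all at a log2 ratio of 3.40. With glucose these genes stood at 0.395, 0.898 and 3.20 CPM.

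ATF5, an activator related to ATF4 whose messenger is likewise translated through upstream open reading frames, was scarce in both libraries. It lies on chromosome 19, plus strand, from 50431959 to 50437193. It had 88 counts without and 65 with glucose, or 2.86 and 2.33 CPM, and the interval of its 1.23-fold ratio (0.880 to 1.72) held 1, so no difference was detectable at this depth. Exons with more than 10 reads numbered 2 of 5 without and 1 of 5 with glucose. At its start the model overlaps NUP62 by 1030 bases and IL4I1 by 804 bases, both on the other strand and both with fewer counts without glucose (1792 and 122) than with glucose (2905 and 217), and the part of their reads in the ATF5 counts was not tested. Of 7 mitochondrial chaperone and protease genes tied to ATF5 in the mitochondrial unfolded protein response, 1 was higher and 0 were lower. Over all measured genes the shares were 3.75% and 6.20%. The median log2 ratio of the 7 genes was 0.48. The higher gene was HSPA9, the mitochondrial HSP70, at 909 CPM without and 431 CPM with glucose (interval of the ratio 2.07 to 2.16), and LONP1, a matrix protease, was within 2-fold at 201 and 113 CPM.

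TRIB3, a pseudokinase that binds ATF4 and the kinase AKT and restrains them, was the most counted of the 10 genes without glucose. It lies on chromosome 20, plus strand, from 361308 to 378203. It had 14721 counts without and 3027 with glucose, or 479 and 109 CPM, a 4.41-fold difference (interval 4.24 to 4.58). Its level was above that of 98.1% of measured genes without glucose and 84.5% with glucose. The paralogs of TRIB3 were not higher, with TRIB1 at 19.3 and 18.9 CPM (log2 ratio 0.03) and TRIB2 lower at 2.73 CPM without against 13.6 CPM with glucose (-2.32). The genes with the nearest ratios to TRIB3 (2.14) were GDF15 (2.14), EFEMP1 (2.13) and SMPDL3B (2.15), and GDF15 is itself a known target of ATF4 and CHOP.

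NUPR1, a small stress-induced nuclear protein and ATF4 target, had 1326 counts without and 374 with glucose. It lies on chromosome 16, minus strand, from 28548662 to 28550495. The counts came to 43.1 and 13.4 CPM, a 3.21-fold difference (interval 2.86 to 3.61). All 4 of its exons had more than 10 reads in both libraries. It has the shortest model of the 10 genes, 909 bases, and the tenth of measured genes with the shortest models had a median log2 ratio of 0.31, against 1.68 for NUPR1. The genes nearest to it in ratio were PAQR6 (1.68), AKAP12 (1.69) and E2F7 (1.69), and those nearest to CEBPG (1.18) were TMEM147, TMEM116 and KIAA0040, all at 1.18.

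CHAC1, an enzyme that breaks down glutathione and a known target of ATF4, ATF3 and CHOP, did not follow DDIT3 and ATF3. It lies on chromosome 15, plus strand, from 41245636 to 41248717. It had 1173 counts without and 1208 with glucose, or 38.2 and 43.4 CPM, a ratio of 0.880 (interval 0.811 to 0.954). Exons with more than 10 reads numbered 4 of 5 without and 5 of 5 with glucose. Per length, CHAC1 stood at 0.165 times the level of ATF4 without glucose and 0.254 times with glucose, and its promoter stretch above holds the composite core. Its paralog CHAC2 had 8.03 and 8.72 CPM (log2 ratio -0.12).

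The order of the 10 genes by level per length, in RPKM computed from the scaled counts, differed between the libraries. Without glucose it ran DDIT3 (291), TRIB3 (196), ATF4 (148), CEBPG (56.4), NUPR1 (47.4), CEBPB (45.2), ATF3 (32.9), CHAC1 (24.5), JDP2 (2.68) and ATF5 (1.21). With glucose it ran ATF4 (109.8), TRIB3 (44.4), CEBPB (30.8), CHAC1 (27.9), CEBPG (24.9), DDIT3 (15.9), NUPR1 (14.8), JDP2 (5.12), ATF3 (3.12) and ATF5 (0.984). Of neighbours in these orders, NUPR1 and CEBPB without glucose (ratio 1.05, interval 0.982 to 1.12) and DDIT3 and NUPR1 with glucose (1.07, 0.938 to 1.23) could not be told apart by counting error. The ratio of every other neighbouring pair had an interval that left out 1. These intervals do not cover any error in the lengths of the gene models. DDIT3 thus held the first place without glucose and the sixth with glucose, ATF3 the seventh and the ninth, and ATF4 the third and the first.

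Set among the whole bZIP family, DDIT3 and ATF3 had the highest ratios of 44 measured bZIP genes. Per length, DDIT3 ranked 1 of 44 without glucose and 17 of 44 with glucose, ATF3 12 and 34, and ATF4 4 and 2. Without glucose the genes next below DDIT3 (291) were XBP1 (262), NFE2L1 (152) and ATF4 (148). With glucose DDIT3 (15.9) lay between NFE2L3 (18.2), CREB3 (18.5) and JUND (19.3) above it and CREBZF (14.4), CREB1 (14.3) and NFIL3 (14.2) below it. Of the 37 measured bZIP genes outside the 10, 6 were higher (16.2%) and 2 were lower (5.41%), and the median log2 ratio was 0.35. Over all measured genes the shares were 3.75% and 6.20%. The higher ones were FOS (3.25), HLF (2.68), MAFF (2.44), NFIL3 (2.25), FOSB (2.12) and NRL (1.94), of which HLF and NRL rest on 120 and 68 counts without glucose and 17 and 16 counts with glucose. The lower ones were CEBPD and JUNB, an AP-1 subunit with 8.52 CPM without and 25.7 CPM with glucose (-1.59). CREB3L4 passed neither bound at 2.42-fold, with an interval of 1.98 to 2.97. Neither did FOSL1, at a ratio of 0.512 with an interval of 0.480 to 0.545.

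**Figure D3:**
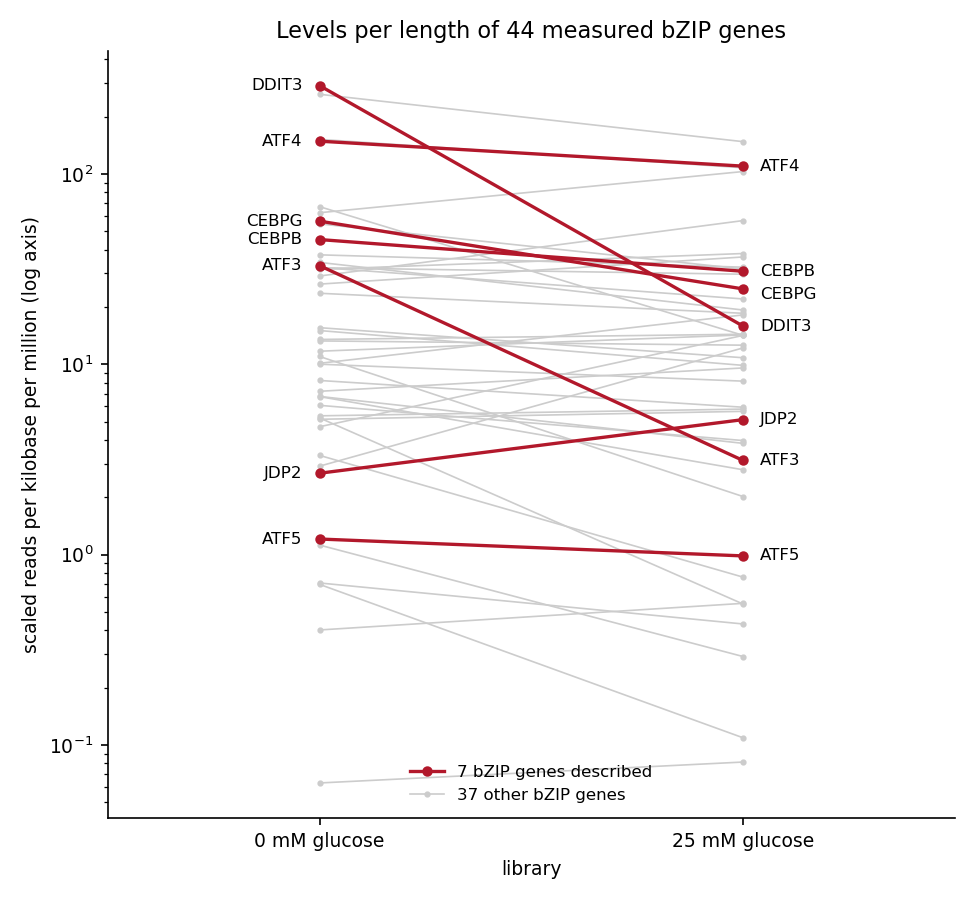
Levels per length (RPKM from scaled counts, log axis) of 44 measured bZIP genes in the library with 0 mM glucose (left) and the library with 25 mM glucose (right), 1 library each, with a line for each gene. The red line of DDIT3 joins 291 without glucose and 15.9 with glucose and crosses that of ATF4, which joins 148 and 109.8.

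The known targets of ATF4 and CHOP were higher in part. Over the 52 measured genes of 5 lists (53 listed, with the 10 genes themselves left out), 10 were higher, 0 were lower and 42 passed neither bound, and the median log2 ratio was 0.40. Over all measured genes 3.75% were higher and 6.20% were lower, with a median of 0.01. The list of stress and signalling targets held 5 of these higher genes among 13 measured, with a median of 0.78. They were NDRG1, a growth arrest and hypoxia gene (1413 CPM without and 197 CPM with glucose), GADD45A, a growth arrest gene (128 and 25.0 CPM), STC2, the hormone stanniocalcin 2 (1138 and 252 CPM), the cytokine GDF15 (28.4 and 6.46 CPM) and HERPUD1, an ER membrane protein of ER-associated degradation (256 and 62.0 CPM). NDRG1 is also a known target of hypoxia factors, and GADD45A and GDF15 of p53. SESN2 (0.78), VEGFA (0.65) and INHBE (3.02 and 1.51 CPM) passed neither bound, and VLDLR, a lipoprotein receptor, had 81.2 and 140 CPM (-0.78). FGF21 was not measured, with 1 and 2 counts.

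Of the 7 genes tied to CHOP, 1 was higher and 0 were lower, against 3.75% and 6.20% of all measured genes. The median log2 ratio of the 7 genes was 0.54. The higher gene was PPP1R15A, whose product GADD34 brings a phosphatase to eIF2 alpha, at 422 CPM without and 31.8 CPM with glucose, a 13.3-fold difference (interval 12.4 to 14.2). The death genes linked to CHOP lay below it. BBC3, the gene of PUMA, had 5.40 and 2.48 CPM (log2 ratio 1.12, with an interval of 1.64-fold to 2.93-fold), PMAIP1, the gene of NOXA, 107 and 61.0 CPM (0.82), TNFRSF10B, the gene of the death receptor DR5, 197 and 136 CPM (0.54) and BCL2L11, the gene of BIM, 15.3 and 12.1 CPM (0.34). BCL2, which CHOP is known to repress, had 2.15 CPM without and 4.88 CPM with glucose (-1.19, with an interval of 0.323-fold to 0.594-fold), and the ER oxidase gene ERO1L had 169 and 138 CPM (0.29).

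Most genes of the amino acid arm of the ATF4 programme passed neither bound, as did 12823 of 14240 measured genes. The share called higher was 8.33% of synthesis genes, 25% of transporter genes and 8.33% of synthetase genes, against 3.75% of measured genes. Of 12 amino acid synthesis genes, 1 was higher and 0 were lower, against 3.75% and 6.20% of all measured genes. The median log2 ratio of the 12 genes was 0.13. The higher one was CTH, the enzyme that makes cysteine from cystathionine, at 272 CPM without and 73.1 CPM with glucose. ASNS, asparagine synthetase and a classic ATF4 target, had 247 and 200 CPM (0.30), and the serine synthesis gene PSAT1 had 268 and 451 CPM (-0.75). Of the 12 ratios 7 lay above 1 and the rest below. Next below CTH were SHMT2 at 1.91-fold (interval 1.85 to 1.97) and MTHFD2 at 1.63-fold (1.58 to 1.67). Of 8 transporter genes, SLC3A2 (1662 CPM without and 228 CPM with glucose) and its partner SLC7A5 (180 and 78.2 CPM) were higher and 0 were lower, with a median of 0.35, while the cystine carrier SLC7A11 had 524 and 680 CPM (-0.37). Of 12 aminoacyl-tRNA synthetase genes, WARS (948 and 350 CPM) was higher and 0 were lower, with a median of 0.21. Of the 12 ratios 11 lay above 1, the exception being MARS (-0.56). Next below WARS was AARS at 1.89-fold (interval 1.85 to 1.92). The ER chaperone genes of the ATF6 and XBP1 branches, the other arms of the ER stress response, were given for comparison. All 11 of them were higher, against 3.75% of all measured genes. The 11 genes had a median of 2.48 and ratios between 2.99-fold (DNAJC3) and 13.3-fold (HSPA5, the chaperone BiP). Between them lay the log2 ratios of DNAJB9 (2.84), PDIA4 (2.79), MANF (2.72), HSP90B1 (2.51), SDF2L1 (2.48), HYOU1 (2.45), CRELD2 (2.45), DNAJB11 (2.34) and CALR (2.07). Ratios of the 10 genes thus spanned -0.94 to 4.20 on the log2 scale, against 1.58 to 3.74 for these chaperone genes.

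**Figure D4:**
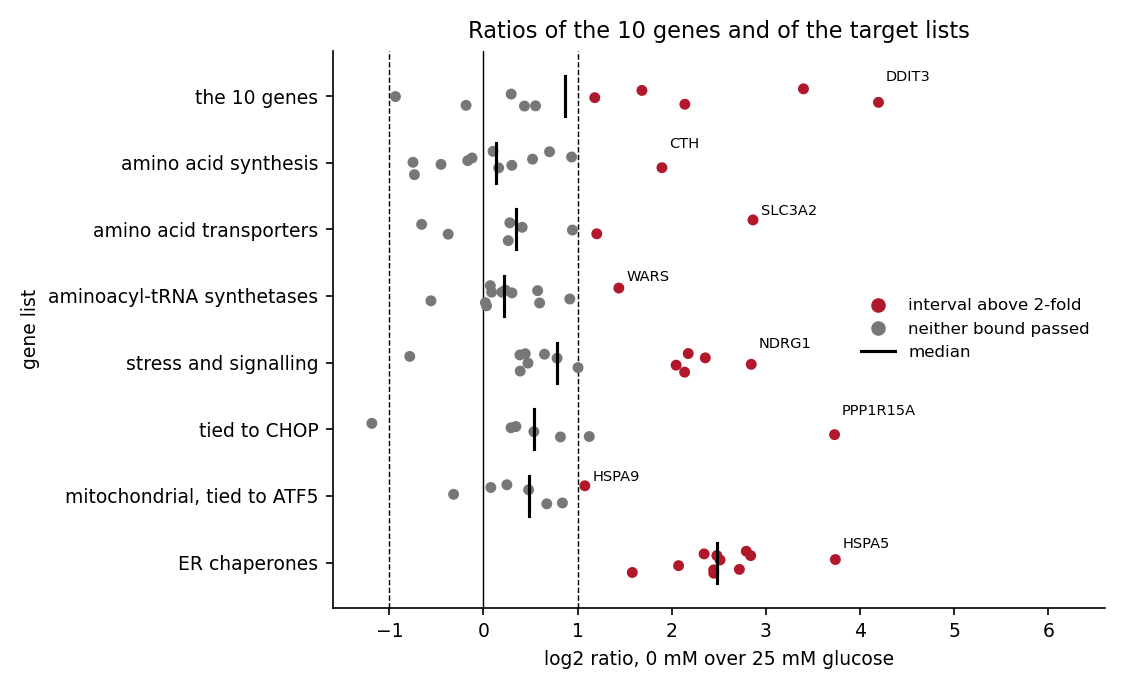
Log2 ratio of the library with 0 mM glucose to the library with 25 mM glucose for the 10 genes, 5 lists of ATF4 and CHOP targets, mitochondrial genes tied to ATF5 and ER chaperone genes, 1 point a measured gene, 1 library each, with the median as a black bar and the gene of the highest ratio named. Red points have a counting interval wholly above 2-fold, which holds for all 11 chaperone genes and for 5 of the 10 genes.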

How the data were processed

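Each of the 2 deposited tables listed 24364 gene models of 1 library. The deposited counts were whole numbers of reads per gene model with no scaling, per the file headers. RPKM values made by the authors stood beside them and were not tested. The numbers of exons with more than 10 reads are the authors' own, per the file headers. Trizol was used for extraction, per the labels' protocols, and hg19 is the build that the submitters' processing notes name. Library preparation, aligner, counter and strand setting are not stated there. Rows that repeated the place, length and counts of another row (528) were removed before summing the rest by symbol. Comparisons used the counts, scaled by the TMM method of edgeR 4.0.16 on measured genes (factors 0.981 without and 1.02 with glucose) in R 4.3.3, with size factors of DESeq2 1.42.0 as an alternative. Levels per length used the scaled counts and the length of the gene model. Ratios have exact 95% Clopper-Pearson intervals and levels exact Poisson intervals, computed with Python 3.11.15 and scipy 1.17.1. They cover counting error only, and are too narrow if PCR copies were counted, since such copies are not independent molecules. The procedure was tested on simulated Poisson counts with planted ratios and no variation between cultures. That test could therefore not show how such variation affects the calls. The 10 genes and all lists were chosen with earlier results of these data known. Named were the 10 genes, the list genes past the bounds, up to 4 others of each list, the 3 genes nearest in ratio and, for levels per length, the 3 bZIP genes next above and below; ASNS, BCL2L11, ERO1L, CEBPA, PAX8, PTPRC, PECAM1 and FGF21 were added after their values were seen. Promoters came from RefSeq (GRCh38.p14), and no coordinate was converted between builds. Proteins were not analysed here.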

Additional observations from a re-analysis of the deposited data

How the results depend on the processing

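No paired analysis was possible because neither condition had a replicate, which also left none to leave out. The 10 genes kept their direction and their side of the bounds in all 60 values under total counts, upper-quartile scaling, DESeq2 size factors, small RNA genes left out, all rows summed by symbol and 1 CPM added to both libraries. Over the 5 settings other than the last, the log2 ratio of DDIT3 ran from 4.14 to 4.23, that of ATF3 from 3.34 to 3.44, that of CEBPG from 1.13 to 1.22 and that of JDP2 from -0.99 to -0.90. With 1 CPM added the log2 ratio was 4.13 for DDIT3, 3.24 for ATF3 and 1.61 for NUPR1. The 80 medians of the 10 lists outside the 10 genes kept their sign, also with at least 1 or at least 100 counts asked for. The counts depended on the size asked for. Past 3-fold, 3 of the 10 genes were higher, and 200 measured genes were higher and 306 lower. Past 1.5-fold, 1 of the 10 genes (JDP2) was lower, and 1451 measured genes were higher and 1800 lower. With the ratio itself past 2-fold and the interval not used, 1045 measured genes were higher and 1515 lower. These differences follow from the bound itself. Depth limited ATF5, at 88 and 65 counts. The intervals of SLC6A9 (51 and 24 counts), INHBE (93 and 42), BBC3 (166 and 69) and CREB3L4 (361 and 135) reached to both sides of 2-fold. Those of JDP2 (351 and 608), FOSL1 (1487 and 2633), BCL2 (66 and 136) and PHGDH (21 and 26) reached to both sides of 0.5-fold.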
